A study of Mus musculus with 24 samples.

Results

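The response of wild-type (WT) bone marrow-derived macrophages (BMDMs) to lipopolysaccharide (LPS) was described from 12 of the 24 ATAC-seq libraries of the series, 6 of WT BMDMs given LPS for 24 h and 6 of unstimulated WT BMDMs, chosen by the genotype and treatment in their labels. The other 12 libraries, 6 unstimulated and 6 LPS-stimulated of mouse cells lacking the aryl hydrocarbon receptor (AhR-KO), served in the comparison of genotypes. They also entered the filter on counts, the scaling, the estimate of spread and the choice of the promoter peak that stands for each gene. All cells were grown from bone marrow in medium with 10% serum, GM-CSF at 10 ng/ml and TGF-β at 2 ng/ml, a mixture meant to make BMDMs resemble alveolar macrophages. LPS, the endotoxin of Gram-negative bacteria, was given at 97 EU/ml on day 6, and 5 µM of the calcium ionophore A23187 was added for the last 10 min to release lipid mediators. The labels attach this treatment text to every library, so the condition was read from the treatment label alone, and whether unstimulated cells also received the ionophore could not be read from it. By the study's methods the cells came from separate animals within each group, in a single experiment on male and female young adult mice, with C57/B6/J mice as WT and the Ahr tm1Bra allele as AhR-KO. The labels number replicates 1 to 6 in each group and do not say which animal or sex a number stands for, nor whether the unstimulated and LPS cultures of a number share an animal. A culture from bone marrow is a model of the alveolar macrophage and not the lung cell itself.

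ATAC-seq uses the transposase Tn5 to cut and tag DNA wherever it is not wrapped in nucleosomes, so a peak marks open chromatin at a promoter, an enhancer or another regulatory element. LPS is sensed by TLR4 with CD14 and MD-2, and the signal runs through MyD88 and TRIF to the transcription factors NF-kB, AP-1 and the IRFs, which induce cytokines, chemokines and, by way of type I interferon and STAT proteins, interferon-stimulated genes. In macrophages these inducible factors act largely at enhancers that the lineage factors PU.1, C/EBP and RUNX have opened during differentiation. Alveolar macrophages are kept in their state by GM-CSF and TGF-β through PPARγ and are known for surfactant handling and for lectin and scavenger receptors.

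The 4 sequences shown here are the central 300 bases of the peaks away from any promoter with the largest gains and losses among those averaging at least 10 CPM (counts for each M counts of TMM-scaled library total) in the higher group, shown because inducible and lineage motifs can be read in them side by side. They are on the + strand of mm10, 5′ to 3′, each named by the gene whose transcription start site (TSS) lay closest. Capitals mark matches, on either strand, to AP-1 (TGANTCA), NF-kB, ISRE (GAAANNGAA, bound by IRFs), GAS (TTCNNNGAA, bound by STATs), PU.1 (GAGGAAGT), C/EBP (TTGCNNAA) and RUNX (TGTGGTT).
Galnt11, chr5:25250270-25250569, opened by LPS: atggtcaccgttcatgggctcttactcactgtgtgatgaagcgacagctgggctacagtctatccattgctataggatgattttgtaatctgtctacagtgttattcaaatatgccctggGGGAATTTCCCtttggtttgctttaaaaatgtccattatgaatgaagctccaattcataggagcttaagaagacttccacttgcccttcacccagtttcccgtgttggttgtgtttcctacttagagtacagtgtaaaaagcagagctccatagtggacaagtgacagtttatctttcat
Hif1a, chr12:73838439-73838738, opened by LPS: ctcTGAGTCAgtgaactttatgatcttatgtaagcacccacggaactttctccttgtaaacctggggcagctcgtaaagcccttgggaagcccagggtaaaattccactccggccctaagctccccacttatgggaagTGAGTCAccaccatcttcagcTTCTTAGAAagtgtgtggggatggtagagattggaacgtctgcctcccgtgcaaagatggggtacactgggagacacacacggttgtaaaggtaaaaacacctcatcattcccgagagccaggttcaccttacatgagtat
Vmn2r26, chr6:123946418-123946717, closed after LPS: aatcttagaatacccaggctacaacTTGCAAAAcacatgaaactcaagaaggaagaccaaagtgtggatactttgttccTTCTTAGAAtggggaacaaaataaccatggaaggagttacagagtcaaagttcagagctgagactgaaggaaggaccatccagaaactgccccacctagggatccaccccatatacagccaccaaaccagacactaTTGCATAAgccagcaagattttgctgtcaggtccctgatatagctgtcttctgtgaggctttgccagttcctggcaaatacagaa
Bach2, chr4:32160935-32161234, closed after LPS: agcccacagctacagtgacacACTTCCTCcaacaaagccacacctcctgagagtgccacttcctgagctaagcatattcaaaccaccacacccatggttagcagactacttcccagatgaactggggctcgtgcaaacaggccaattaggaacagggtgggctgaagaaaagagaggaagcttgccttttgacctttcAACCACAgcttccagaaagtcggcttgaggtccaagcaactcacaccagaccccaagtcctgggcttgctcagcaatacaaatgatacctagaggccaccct

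The window near Galnt11 held 2 overlapping NF-kB matches, and that near Hif1a held 2 AP-1 matches and 1 GAS match. The window near Vmn2r26 held 2 C/EBP matches and 1 GAS match, and that near Bach2 held 1 PU.1 and 1 RUNX match. A match is a description of letters and not evidence of binding.

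Depth differed between the groups. The LPS libraries held 25.1 to 34.6 M counts in peaks and the unstimulated ones 8.54 to 23.1 M, with replicate 5 the smallest (two-sided exact permutation test, p = 0.00216, the smallest that 924 assignments allow). Peaks over TSSs took 32.8 to 34.5% of counts before and 30.7 to 33.1% after LPS (exact permutation test, p = 0.0108, Benjamini-Hochberg adjusted p = 0.0108). Replicate 6 stood apart in both groups by its counts on the Y chromosome, 118 and 90.1 for each M counts against 226 to 272 and 189 to 226 in the other libraries. Of 10 macrophage markers 9 had a tested TSS peak, and their summed accessibility was 223 to 235 CPM before and 194 to 217 CPM after LPS. Spi1, which encodes PU.1, had none. TSS peaks were tested for 7 of 8 alveolar macrophage markers, 6 of 10 of neutrophils and their precursors (not Ly6g, Elane, Mpo or Prtn3), 4 of 7 of dendritic cells, 1 of 9 of lymphocytes, 1 of 6 of mast cells, 3 of 6 of fibroblasts and 2 of 6 of erythroid cells. In bulk libraries a smaller number of cells of one type and lower accessibility in each cell cannot be told apart.

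LPS changed accessibility mostly away from promoters. Of 174193 peaks tested, 44219 (25.4%) were higher after LPS and 37692 (21.6%) were lower as differentially accessible regions (DARs), which here are peaks with a fold of at least 1.5 and an adjusted p of at most 0.05 in edgeR's quasi-likelihood test. Of 13458 peaks over the TSS of a protein-coding gene, 555 (4.12%) rose and 846 (6.29%) fell. Of 154364 distal peaks, those more than 2 kb from any TSS, 42271 (27.4%) rose and 35416 (22.9%) fell. The 6 LPS and the 6 unstimulated libraries did not overlap in 38.7% of all tested peaks. Thinning every library to the smallest total left 32371 higher and 27078 lower DARs among the 133560 peaks then tested. Without unstimulated replicate 6 there were 45069 higher and 36258 lower DARs, and without LPS replicate 6 there were 43857 and 37744.

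Gains were larger than losses. LPS raised 11639 peaks and lowered 1820 by at least 4-fold, and raised 352 but lowered 1 by at least 16-fold. Distal DARs that rose went from a median of 0.712 to 2.20 CPM, and those that fell went from 2.36 to 1.07 CPM. TSS peaks that rose started at a median of 3.04 CPM and those that fell at 7.75 CPM, against 21.8 CPM for the TSS peaks that were not DARs.

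**Figure D1:**
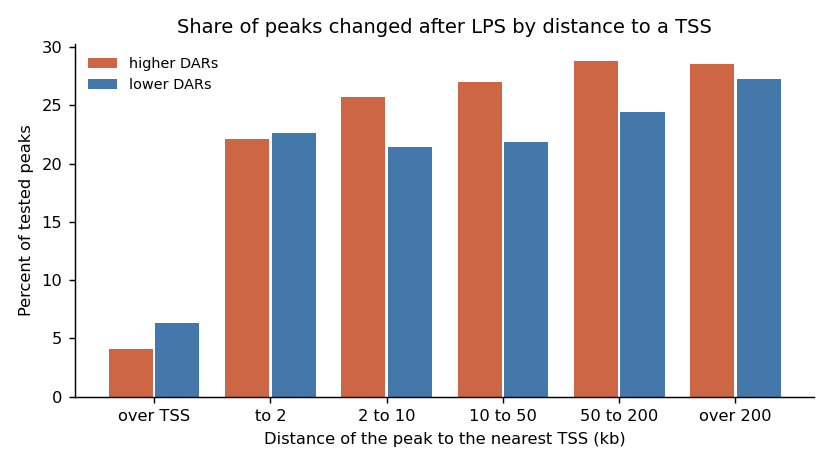
Percent of tested peaks that were higher (red) or lower (blue) DARs after LPS, by distance in kb from the nearest TSS. About 4.12 and 6.29% of peaks over a TSS changed, against over 20% in each direction in every other bin.

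The step was at the TSS itself. Peaks within 2 kb of a TSS without covering it changed nearly as often as distal ones, with 22.1% higher and 22.6% lower. Beyond 200 kb the shares were 28.6 and 27.3%. Introns (27.2% higher, 22.3% lower) and intergenic DNA (27.5 and 23.8%) had like shares, and exon peaks that covered no TSS changed in 23 and 20.7% of cases. Among TSS peaks, the quartile with the fewest CpG dinucleotides in the central 300 bases, 0 to 11, held 11.8% higher and 14.3% lower DARs. The quartile with the most, 32 to 65, held 1.28 and 2.64%. Promoters rich in CpG are known to belong mainly to housekeeping and developmental genes.

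Many gained sites had no called peak before stimulation. Of the higher distal DARs, 27970 (66.2%) overlapped no peak called in any of the 6 unstimulated libraries, and 7186 (17%) overlapped a called peak in 0 of 6 unstimulated and 6 of 6 LPS libraries. Of the lower distal DARs, 15597 (44.0%) overlapped no called peak in any LPS library, but only 659 (1.86%) went from 6 of 6 to 0 of 6. Among distal peaks that were not DARs, 25.2% overlapped no called peak in any unstimulated library and 19.4% none in any LPS library. No LPS library had a called peak at 5024 (11.9%) of the higher distal DARs. At TSSs, 253 higher DARs (45.6%) and 518 lower DARs (61.2%) had a called peak in all 12 libraries, against 91.6% of TSS peaks that were not DARs. The unstimulated libraries were shallower and had fewer called peaks, 74654 to 107530 against 106401 to 116364 (exact permutation test, p = 0.00649, adjusted p = 0.0108), and the part of depth in these overlaps was not tested.

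The distal gains named here are the largest among peaks averaging at least 10 CPM after LPS. The peak at chr5:25250003-25250837, in an intron 2.64 kb from the TSS of Galnt11, which encodes an enzyme of O-glycosylation, held a median of 0.388 CPM (0.184 to 0.582) in unstimulated and 13.9 CPM (12.7 to 21.2) in LPS libraries. Its log2 fold change was 5.44 (SE 0.19, edgeR adjusted p = 7.18e-23). An intergenic peak at chr12:73838030-73839147 lay 62.2 kb from the TSS of Hif1a, the oxygen-sensitive factor that also drives glycolysis in activated macrophages. It went from 0.479 CPM (0.397 to 0.828) to 22.6 CPM (19.1 to 29.8), with a log2 fold change of 5.41 (SE 0.16, edgeR adjusted p = 3.34e-25). Neither peak was called in any unstimulated library, and both were called in all 6 LPS libraries.

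Next came an intergenic peak 41.8 kb from Fam124b, from 0.248 CPM (0.218 to 0.486) to 11.4 CPM (9.8 to 13.6), log2 fold change 5.19. An exon peak 16 kb from Mrpl39, a gene for a mitochondrial ribosomal protein, had the highest level of these, 2.57 CPM (1.98 to 3.37) before and 96.9 CPM (82.9 to 110) after LPS. The peaks nearest Fndc3a, Chst11 (a chondroitin sulphotransferase), Slc1a2 (a glutamate transporter) and Htr2a (a serotonin receptor) had log2 fold changes of 5.05 to 5.06. They lay 100 kb, 49.1 kb, 15.9 kb and 267 kb from those TSSs. In all 8 of these peaks the groups did not overlap, as the rule that picked them required.

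The distal losses named here are the largest among peaks averaging at least 10 CPM before LPS, a limit that sets their starting level. All lower distal DARs had a median of 2.36 CPM before LPS. The peak at chr6:123946223-123946913, 77.7 kb from the vomeronasal receptor gene Vmn2r26, fell from 15.6 CPM (9.31 to 18.3) to 1.09 CPM (0.569 to 1.58), log2 fold change -3.68 (SE 0.16, edgeR adjusted p = 5.08e-19). At chr4:32160743-32161426, 77.4 kb from Bach2, a repressor of the BACH family, accessibility fell from 13.7 CPM (12 to 14.7) to 1.35 CPM (1.26 to 1.5), log2 fold change -3.30 (SE 0.09, edgeR adjusted p = 5.04e-26). Intronic peaks near Pitpnm2 (log2 fold change -3.14), Spns1 (-3.08) and Snrk (-2.85) and intergenic peaks near A430005L14Rik (-3.10) and Plxna1 (-2.99) were also among the rule's 8. The peak near A430005L14Rik varied most among unstimulated libraries, 5.23 to 19 CPM with a median of 12.5 CPM. Its LPS range was 1.15 to 1.89 CPM, and the rule required groups that did not overlap.

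Sequence motifs set the gained sites apart from the lost ones. AP-1, the family of FOS, JUN and BATF dimers, had a match in the central 300 bases of 19.4% of all distal peaks, 36% of the higher DARs, 7.71% of the lower DARs and 15.7% of the peaks that were not DARs. NF-kB matches were in 12.3, 3.72 and 5.23% of these classes. PU.1, the master factor of the myeloid lineage, ran the other way, with 4.10% of higher, 14.1% of lower and 7.16% of other distal peaks. RUNX matches were in 10.3, 13.8 and 10.6%. In the peaks that changed by at least 4-fold the contrast was wider, with AP-1 in 43.3% of those raised and 4.37% of those lowered, NF-kB in 19.4 and 2.41%, and PU.1 in 2.76 and 18.8%.

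**Figure D2:**
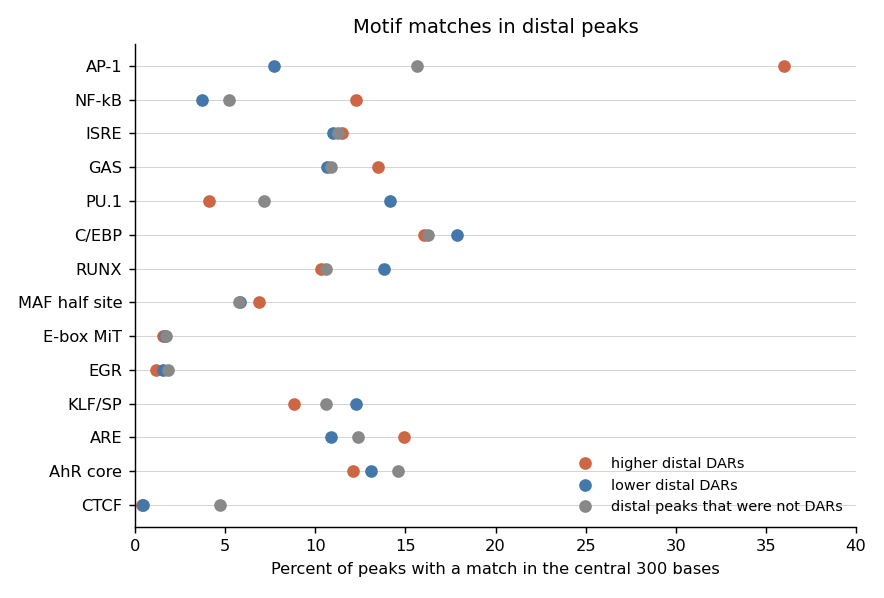
Percent of distal peaks with at least 1 match to each of 14 motifs in their central 300 bases, for higher DARs (red), lower DARs (blue) and peaks that were not DARs (grey). AP-1 (36 against 7.71%) and NF-kB (12.3 against 3.72%) matched more of the higher than of the lower DARs and PU.1 fewer (4.10 against 14.1%), while CTCF is at 4.74% of the peaks that were not DARs and under 0.5% of either kind of DAR.

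Other motifs differed less between higher and lower DARs than AP-1, NF-kB and PU.1. ISRE matches were in 11.5% of higher, 11% of lower and 11.3% of other distal peaks. GAS matches were in 13.5, 10.7 and 10.8%, C/EBP matches in 16, 17.8 and 16.2%, and matches to the antioxidant response element of NRF2 (ARE, TGACNNNGC), whose first letters it shares with AP-1, in 14.9, 10.9 and 12.4%. The MAF half-site (TGCTGAC), the E-box of MiT factors (TCACGTG), EGR (GTGGGCG), KLF/SP (CCCCNCCC) and the core bound by AhR (GCGTG) were also searched on both strands. KLF/SP matches were in 8.82% of higher, 12.3% of lower and 10.6% of other distal peaks. CTCF, the insulator protein that anchors chromatin loops, matched in 0.376, 0.438 and 4.74%, so that only 4.03% of the 3947 distal peaks with a CTCF match rose and 3.93% fell.

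Read from the motif side, 50.8% of the 29956 distal peaks with an AP-1 match rose and 9.12% fell. With NF-kB it was 49.3 and 12.5% of 10508 peaks, and with PU.1 14.2 and 40.9% of 12226. The 1964 peaks with both AP-1 and NF-kB rose in 68.8% of cases and fell in 5.24%, with a median log2 fold change of 1.35. AP-1 without NF-kB gave 49.6% higher, NF-kB without AP-1 44.8%, and neither 20.04% higher and 27.2% lower. Where AP-1 and PU.1 matched in the same 300 bases, in 1849 peaks, 29.9% rose and 19.1% fell, against 11.4 and 44.8% with PU.1 but no AP-1. These are shares over peaks of the same libraries, given with no test.

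The TSS gains named here are the largest among peaks averaging at least 10 CPM after LPS, and smaller peaks such as that of Ccl5 (log2 fold change 4.34) fall outside it. Rlbp1, the gene of a retinaldehyde-binding protein, went from a median of 0.522 CPM (0.349 to 0.750) to 10.6 CPM (8.96 to 11.2), log2 fold change 4.32 (SE 0.15, edgeR adjusted p = 3.38e-23). Hamp, which encodes the iron hormone hepcidin, went from 1.48 CPM (1.19 to 1.59) to 17.4 CPM (14.5 to 22.5), log2 fold change 3.62 (SE 0.13, edgeR adjusted p = 4.69e-23). Serpinb2, the gene of plasminogen activator inhibitor 2, went from 1.79 CPM (1.52 to 2.25) to 14.2 CPM (12.5 to 19.5), log2 fold change 2.96 (SE 0.13, edgeR adjusted p = 7.24e-21). Il23r, a subunit of the IL-23 receptor, went from 3.02 CPM (2.25 to 4.64) to 24.8 CPM (22.1 to 26.6), log2 fold change 2.95. In these genes every LPS library exceeded every unstimulated one, as the rule that picked them required. Prss46, a serine protease gene, and the zinc finger gene Zfp811 also belong to the 8 largest under that limit, at 3.6 and 3.25.

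Some of the largest changes were at internal start sites. The Clec16a peak at chr16:10599964-10600973 lies 55.2 kb inside the gene and rose from 0.735 CPM (0.567 to 1.2) to 15.3 CPM (14 to 16.9), log2 fold change 4.26, while the highest TSS peak of the gene averaged 17.6 CPM before and 17.2 CPM after LPS. For Tnfaip3, which encodes the NF-kB inhibitor A20, a start site 3.69 kb inside the gene rose from 2.95 CPM (2.18 to 3.27) to 16 CPM (13.9 to 16.6), log2 fold change 2.44, and the highest TSS peak had a log2 fold change of 0.20. Internal starts of Deptor (21.1 kb inside), an inhibitor of mTOR, and Nin (10.9 kb inside), a centrosomal protein, fell by 1.64 and 1.62 on the log2 scale, against -0.20 and -0.17 at the highest TSS peaks. Of 807 genes with 2 or more tested TSS peaks, 268 had a DAR at one of them. In 234 of these another TSS peak of the gene was not a DAR, in 25 every peak changed one way, and in 9 peaks changed in both directions.

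TSS losses were at most 3.56-fold among peaks averaging at least 10 CPM before LPS, and 11 TSS peaks of any level fell by at least 4-fold, against 60 that rose. Gpr39, a zinc-sensing receptor, fell from 19.7 CPM (10.1 to 28.5) to 5.70 CPM (4.12 to 6.39), log2 fold change -1.83 (SE 0.20, edgeR adjusted p = 2.74e-08). Gsc, a homeobox gene, fell from 27.9 CPM (25.1 to 32) to 8.24 CPM (7.69 to 10.8), log2 fold change -1.67. Fcrls, a receptor gene of myeloid cells, fell from 11.3 CPM (10.9 to 12.3) to 3.82 CPM (3.19 to 4.11), log2 fold change -1.62. Pald1 (-1.61), Gm6583 (-1.60) and Bank1 (-1.59), the latter an adaptor known from B cells, were next. Groups did not overlap at any of these, as the rule that picked them required.

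With 1 TSS peak kept for each gene, the one with the highest mean over all 24 libraries, 460 of 13747 genes (3.35%) rose and 736 (5.35%) fell. Of these calls 38.5% were higher, and offsets for GC content with a replicate block brought that share to 48.5%, with 555 genes higher and 590 lower. Each gene list below is read against these shares at TSSs and against 27.4 and 22.9% at distal peaks, which were assigned to the gene with the nearest TSS and may serve another. List counts are described with no set test. Where a list below has 0 calls in a direction, DESeq2 also called 0. Genes at an unadjusted p below 0.05 in that direction are given for the lists the text turns on. The share of all genes at that unadjusted p was not computed. With no fold threshold, 1923 genes were higher and 4470 lower at an adjusted p of at most 0.05, so small changes were common over all genes.

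**Figure D3:**
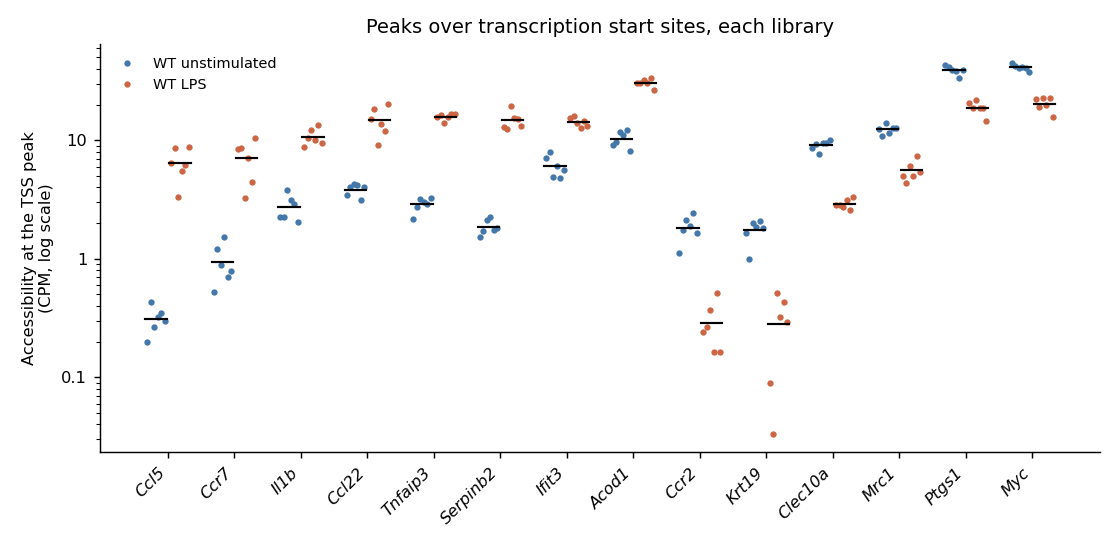
Accessibility at the TSS peak in each library (CPM, log scale) for 14 genes, unstimulated in blue and LPS in red, with lines at the group means. Ccl5, Ccr7, Il1b, Ccl22, Tnfaip3 (the internal start), Serpinb2, Ifit3 and Acod1 are higher and Ccr2, Krt19, Clec10a, Mrc1, Ptgs1 and Myc lower in all 6 LPS libraries.

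Genes of LPS sensing changed at their promoters about as often as all genes. Of 28 genes of TLR signalling none rose, although 9 were higher at an unadjusted p below 0.05, and 1 fell, Ticam2, which encodes the TRIF adaptor TRAM, from 23.4 CPM (23 to 25.3) to 14.4 CPM (12.8 to 16.7), log2 fold change -0.72. Over all settings with the same thresholds 0 to 1 of the 28 were called higher and 1 to 2 lower. Distal peaks of the TLR list were 30.9% higher and 17.8% lower of 427. Of 14 genes of NF-kB subunits and inhibitors 2 rose, Tnip3 (log2 fold change 0.64) and Nfkbie (0.60), genes of an A20-binding protein and an IκB. Tnip3 went from 22 CPM (19.6 to 25.2) to 35.4 CPM (32.2 to 36.8), and Nfkbie from 40.3 CPM (36.1 to 41.9) to 58.9 CPM (53.4 to 67.7). Both are near the fold threshold. Tnip3 was lost with GC offsets at 0.57, and Nfkbie without unstimulated replicate 5 (0.58), LPS replicate 2 (0.56) or LPS replicate 6 (0.57), and 1 to 4 genes of the list were called over all settings.

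The distal peaks of NF-kB genes opened in far larger number, 124 higher (49.0%) and 28 lower (11.1%) of 253. They include 31 higher of 47 near Nfkb1, the gene of p105 and p50, 29 of 56 near Tnfaip3 and 17 of 25 near Rel, with 6, 6 and 2 lower. Among 14 genes of AP-1 and ATF factors, Batf2 rose from 2.58 CPM (1.32 to 3.36) to 7.31 CPM (5.51 to 7.99), log2 fold change 1.51, and Fosl1, the gene of FRA1, from 5.24 CPM (4.49 to 6.14) to 8.17 CPM (7.63 to 10.2), log2 fold change 0.68. Of 16 IRF and STAT genes only Stat4, which transduces IL-12 signals, passed, from 3.24 CPM (2.47 to 3.96) to 9.87 CPM (6.11 to 13.5), log2 fold change 1.58. The Tnip3, Batf2 and Stat4 peaks cover start sites 65.1, 23.5 and 21.1 kb inside the genes' full extent. Distal peaks of the AP-1 list were 32.5% higher and 20% lower of 200, and those of the IRF and STAT list 36 and 15.2% of 197.

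The inflammatory mediators moved at promoters as well as distal sites. Of 24 cytokine genes with a TSS peak 9 rose and none fell, with 2 lower at an unadjusted p below 0.05, and of their 517 distal peaks 44.9% rose and 16.6% fell. Il1b went from 2.59 CPM (2.03 to 3.84) to 10.3 CPM (8.75 to 13.5), log2 fold change 1.96 (SE 0.14, edgeR adjusted p = 7.92e-15). Il12a, the p35 subunit of IL-12, went from 10.8 CPM (9.90 to 11.3) to 35.3 CPM (31.8 to 37.7), log2 fold change 1.70 (SE 0.07, edgeR adjusted p = 5.77e-22). The colony-stimulating factor genes Csf3 and Csf2 had log2 fold changes of 1.58 and 1.07, Il6 1.17, Il27 0.82, Il1a 0.73 and Il23a 0.68. Near Il6, 27 of 34 distal peaks rose and 1 fell. Tnfsf9, the ligand of 4-1BB, was called at 0.61 from 9.81 CPM (8.39 to 11.1) to 14.4 CPM (12.1 to 17.7) and was lost after thinning (0.55) and without unstimulated replicate 3 (0.57), LPS replicate 2 (0.57) or LPS replicate 6 (0.56). TSS peaks of Il10, Il19 and Il36g were not tested.

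Chemokine promoters divided. Of 20 with a TSS peak 8 rose and 4 fell, and of 114 distal peaks 40.4% rose and 14.9% fell. Ccl5, which attracts T cells, went from 0.310 CPM (0.198 to 0.436) to 6.30 CPM (3.33 to 8.70), log2 fold change 4.34 (SE 0.27, edgeR adjusted p = 5.98e-15), with a called peak in 0 of 6 unstimulated and 6 of 6 LPS libraries. Ccl22, a ligand of CCR4, went from 4.01 CPM (3.14 to 4.24) to 14.4 CPM (9.10 to 20.04), log2 fold change 1.91 (SE 0.14, edgeR adjusted p = 2.95e-13). Cxcl16 (1.71, in a peak shared with the start of Zmynd15), the neutrophil chemokines Cxcl3 (1.55) and Cxcl1 (0.94), the CXCR3 ligands Cxcl9 (1.47) and Cxcl10 (0.95), and Ccl4 (0.86) rose too.

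The 4 chemokine promoters that closed were Ccl12, Ccl2, Ccl7 and Ccl6, of which the first 3 are monocyte chemoattractants encoded side by side on chromosome 11. Ccl12 fell from 28.8 CPM (27.3 to 33.4) to 14.4 CPM (12.7 to 14.7), log2 fold change -1.08 (SE 0.08, edgeR adjusted p = 6.48e-15). Ccl2 fell from 23 CPM (20.4 to 24.2) to 12.6 CPM (11.9 to 12.9), log2 fold change -0.86 (SE 0.09, edgeR adjusted p = 6.64e-11). Ccl6 was at -0.85 and Ccl7 at -0.67, the latter at under 2 CPM in every library and with overlapping groups.

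Interferon-stimulated genes, which encode antiviral effectors, had the largest share of higher distal peaks of the 26 lists. Of 33 genes 7 rose at the TSS and none fell, with 2 lower at an unadjusted p below 0.05, and 19 had groups that did not overlap, against 24% of all genes. Of 244 distal peaks 50.8% rose and 7.38% fell. Oasl1 went from 14.7 CPM (14.1 to 18.4) to 38.3 CPM (28.9 to 46.0), log2 fold change 1.28 (SE 0.10, edgeR adjusted p = 5.42e-13), and Ifit3 from 5.88 CPM (4.77 to 7.89) to 14.3 CPM (12.6 to 15.9), log2 fold change 1.22 (SE 0.11, edgeR adjusted p = 2.92e-12). Ifi44 (1.21), Ifit1 (0.96, in a peak shared with the start of Ifit1bl2), Rsad2 (0.81), Isg15 (0.80) and Oasl2 (0.69) followed. GC offsets and the other settings moved this count between 7 and 11.

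Feedback inhibitors, which limit the response, had 1 changed promoter. Of 21 only Socs1, which blocks JAK kinases, rose at its TSS, from 51.8 CPM (49.1 to 59.2) to 80.6 CPM (70.0 to 93.5), log2 fold change 0.61, and without LPS replicate 2 it was at 0.56 and not called. Of their 517 distal peaks 40.4% rose and 12.6% fell. Near Dusp4, a MAP kinase phosphatase gene, 36 of 56 rose and 3 fell, and near its relative Dusp16 20 of 29 rose and none fell.

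The promoters below were printed because their motif matches represent the main classes of the response. They were chosen after their values were seen. The starts of Tnip3 and Tnfrsf9 are internal, 65.1 and 13.4 kb inside the genes' full extent. Each is the 250 bases before the RefSeq start (GRCm38.p6, + strand gene), in lower case with matches to the same 7 motifs in capitals.
Tnip3, chr6:65590148-65590397: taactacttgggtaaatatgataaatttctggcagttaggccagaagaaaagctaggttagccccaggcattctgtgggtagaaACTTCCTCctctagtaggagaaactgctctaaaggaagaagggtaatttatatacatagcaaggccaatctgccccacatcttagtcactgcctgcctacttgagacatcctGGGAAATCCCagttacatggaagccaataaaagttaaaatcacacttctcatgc
Tnfrsf9, chr4:150927749-150927998: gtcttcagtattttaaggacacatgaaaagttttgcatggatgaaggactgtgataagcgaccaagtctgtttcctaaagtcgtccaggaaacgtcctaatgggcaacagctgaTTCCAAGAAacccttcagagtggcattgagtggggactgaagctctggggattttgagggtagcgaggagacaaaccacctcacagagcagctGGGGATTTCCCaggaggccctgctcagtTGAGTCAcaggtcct
Ifit3, chr19:34583279-34583528: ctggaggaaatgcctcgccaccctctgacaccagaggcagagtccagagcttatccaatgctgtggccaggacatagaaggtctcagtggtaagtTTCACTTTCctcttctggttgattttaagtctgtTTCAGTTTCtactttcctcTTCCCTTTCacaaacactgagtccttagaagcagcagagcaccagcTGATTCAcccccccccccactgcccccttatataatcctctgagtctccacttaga
Ptgs1, chr2:36230176-36230425: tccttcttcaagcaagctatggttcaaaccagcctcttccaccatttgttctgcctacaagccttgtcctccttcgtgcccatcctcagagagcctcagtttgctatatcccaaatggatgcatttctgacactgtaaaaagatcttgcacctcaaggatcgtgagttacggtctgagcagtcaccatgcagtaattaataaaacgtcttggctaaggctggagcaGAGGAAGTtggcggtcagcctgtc

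Tnip3 held 1 NF-kB and 1 PU.1 match, and Tnfrsf9 held 2 overlapping NF-kB, 1 AP-1 and 1 GAS match. Ifit3 held 3 ISRE matches and 1 AP-1 match, and Ptgs1, whose peak closed, held 1 PU.1 match next to the start. Of 32851 RefSeq promoters of 300 bases, 250 before and 50 after the start, 8.46% held an NF-kB match, 7.81% AP-1, 8.56% ISRE, 8.30% GAS and 3.20% PU.1. For 44 of the 65 named TSS peaks a RefSeq promoter lay in the peak.

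Enzymes of macrophage metabolism opened at selected promoters. Of 23 genes of itaconate, arginine and sugar metabolism 2 rose and 1 fell. Acod1, which makes itaconate, went from 10.3 CPM (8.07 to 12.2) to 30.5 CPM (26.5 to 33.7), log2 fold change 1.58 (SE 0.09, edgeR adjusted p = 1.15e-16), and Nos2, inducible nitric oxide synthase, had a log2 fold change of 0.93. Slc16a3, a lactate exporter, fell from 19 CPM (17.5 to 21.5) to 11.6 CPM (10.9 to 14.5), log2 fold change -0.67. Of their 339 distal peaks 39.5% rose and 12.1% fell. Near Ass1, which returns citrulline to arginine, 17 of 22 rose and none fell, and near Slc7a2, an arginine transporter, 17 of 21 rose and none fell. The TSS peak of Ass1 itself was not a DAR.

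Eicosanoid genes changed in both directions, with Alox5, Alox5ap, Ltc4s and Ggt5 of the leukotriene pathway on the lower side. Lta4h of the same pathway was tested at its TSS and was not a DAR. Of 17 with a TSS peak 3 rose and 6 fell. Ptgs2, the inducible cyclooxygenase, went from 15.9 CPM (14.1 to 17.4) to 30.5 CPM (27.9 to 33.6), log2 fold change 0.96 (SE 0.07, edgeR adjusted p = 3.07e-15). Ptgs1, the constitutive cyclooxygenase, fell from 39 CPM (33.3 to 43.2) to 18.8 CPM (14.5 to 21.8), log2 fold change -1.05 (SE 0.07, edgeR adjusted p = 8.63e-15). Alox5, which starts leukotriene synthesis, fell from 40.9 CPM (36.9 to 45.5) to 20.8 CPM (17.3 to 23.9), log2 fold change -0.97 (SE 0.07, edgeR adjusted p = 2.68e-15). Its partner Alox5ap (-0.76), the leukotriene C4 synthase gene Ltc4s (-0.70), Ggt5 (-0.65), which acts on leukotriene C4, and the prostaglandin-degrading Hpgd (-0.83) fell as well, and Pla2g7 (0.71) and Alox12 (0.70) rose.

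The distal peaks of eicosanoid genes moved both ways, 27.7% higher and 26% lower of 296. Near Ptgs2 13 of 30 rose and 2 fell. Of the peaks assigned to Pla2g4a, the neighbouring gene for cytosolic phospholipase A2, 21 of 77 rose and 28 fell. They include a run of 14 consecutive lower DARs over 617 kb, at chr1:148287975-148904572. That run was assigned to Pla2g4a only as the nearest protein-coding gene, and the TSS of neighbouring Ptgs2 is at chr1:150100031. Near Hpgds, the haematopoietic prostaglandin D synthase gene, 1 of 18 rose and 8 fell.

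Of the promoters of alveolar macrophage identity 10 of 28 closed. None rose, with 3 higher at an unadjusted p below 0.05, and the share that fell compares with 5.35% of all genes, and the list's median log2 fold change was -0.50 against -0.07 for all genes. Plet1 fell from 9.85 CPM (9.26 to 11) to 3.75 CPM (3.09 to 4.43), log2 fold change -1.42 (SE 0.11, edgeR adjusted p = 4.07e-14). Krt19, an epithelial keratin gene that these cells share, fell from 1.84 CPM (1.0 to 2.09) to 0.310 CPM (0.0333 to 0.517), log2 fold change -2.58 (SE 0.32, edgeR adjusted p = 2.50e-08), at low counts in both groups. Cidec, a lipid droplet gene, was at -1.39, the ribonuclease genes Ear1 and Ear2 at -1.22 and -1.0, the mannose receptor gene Mrc1 at -1.15, the lectin gene Siglecf at -0.88, the circadian repressor gene Bhlhe41 at -0.69, Marco at -0.68 and Chil3 at -0.67. Marco groups overlapped. Distal peaks of the list were 23.7% higher and 27.4% lower of 503. The summed level of the 9 macrophage markers was also lower after LPS, and its part in these losses was not tested. Pparg itself was at -0.29 and not a DAR.

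Of 27 macrophage lineage factors with a TSS peak none rose and 2 fell, Cebpe (-0.92) and Tfec (-0.69). Cebpe, a factor of granulocyte maturation, went from 21 CPM (20.7 to 21.9) to 11.2 CPM (9.97 to 12.3). Of the 6 neutrophil markers tested 1 rose and 3 fell, with a median log2 fold change of -0.57, S100a9 at -1.32 and Camp at 0.86 (both named after their values were seen), and the 6 summed to 55.2 to 70.9 CPM before and 46.6 to 67.1 CPM after LPS. The 1402 distal peaks of lineage factors were 30.3% higher and 21.3% lower. Of 28 genes of nuclear receptors and cholesterol only Fasn, fatty acid synthase, was called, at -0.60 from 38.9 CPM (35.2 to 40.2) to 25 CPM (23.6 to 27.1). It was lost with GC offsets (-0.52) and without unstimulated replicate 5, LPS replicate 3 or LPS replicate 6 (-0.58 each), and without LPS replicate 5 there were 2 calls. Their distal peaks were 29% higher and 23.4% lower of 435, with 21 of 48 higher and 7 lower near the cholesterol exporter gene Abca1 and 1 of 17 higher and 12 lower near Insig1, a brake on sterol synthesis.

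Scavenger, efferocytosis and lectin receptors lost accessibility at 7 of 21 promoters and gained it at none, with 4 higher at an unadjusted p below 0.05. Over all settings with the same thresholds 5 to 7 were called lower and 0 to 1 higher. Clec10a, a lectin of alternatively activated macrophages with its peak at a start 10.4 kb inside the gene's full extent, fell from 9.40 CPM (7.64 to 10.0) to 2.84 CPM (2.59 to 3.29), log2 fold change -1.64 (SE 0.09, edgeR adjusted p = 1.50e-17), and Mrc1 from 12.5 CPM (10.8 to 14.1) to 5.21 CPM (4.39 to 7.42), log2 fold change -1.15. Cd36 (-0.74), the efferocytosis receptor gene Axl (-0.72), Clec4n (-0.69) and Marco (-0.68) followed. Mertk was at -0.60 and was lost with GC offsets (-0.49), after thinning (-0.53) and without unstimulated replicate 6, LPS replicate 1 or LPS replicate 4 (each -0.58). Distal peaks of the list were 21.1% higher and 23.6% lower of 275.

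Receptors for chemokines, growth factors and cytokines moved in both directions at 4 and 3 of 31 promoters. Ccr7, which guides cells to lymph nodes, went from 0.838 CPM (0.528 to 1.52) to 7.73 CPM (3.27 to 10.5), log2 fold change 2.83 (SE 0.29, edgeR adjusted p = 3.55e-09), and 13 of its 18 distal peaks rose with none lower. Ccr2, the receptor of the monocyte chemoattractants that closed, went from 1.81 CPM (1.12 to 2.44) to 0.253 CPM (0.163 to 0.510), log2 fold change -2.65 (SE 0.25, edgeR adjusted p = 1.01e-11). The Ccr2 peak had low counts in both groups, and no peak was called there in any unstimulated or LPS library. Ccr1 was at -0.62. Il1r1 rose from 4.25 CPM (3.97 to 5.12) to 8.42 CPM (6.16 to 9.36), log2 fold change 0.92, and Csf1r was at 0.66. Ccr3 was called at 0.68 with levels of at most 1.02 CPM and overlapping groups. Distal peaks of the list were 34.3% higher and 17.8% lower of 484.

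Antigen presentation opened at few promoters, and none closed, with 2 of class II and 1 of class I lower at an unadjusted p below 0.05. Of 15 MHC class II genes 2 rose, H2-Oa from 6.20 CPM (5.55 to 7.02) to 13.1 CPM (11.6 to 14), log2 fold change 1.07, and H2-Eb2 from 1.21 CPM (0.598 to 1.48) to 1.90 CPM (1.43 to 3.03), log2 fold change 0.79, with overlapping groups. Of 19 MHC class I genes 4 rose, Tapbpl from 12.3 CPM (11.4 to 13.1) to 24.1 CPM (18.6 to 27.6), log2 fold change 0.95, the peptide transporter gene Tap2 (0.65), H2-Q7 (0.61) and H2-T23 (0.59). H2 genes are near-identical copies, so counts can be split between them. H2-T23 was lost after thinning (0.53) and without unstimulated replicate 1 (0.58) or 3 (0.55) or LPS replicate 2 (0.56), 5 (0.57) or 6 (0.56), and 2 to 4 genes of class I were called over all settings. Distal peaks were 31.9% higher and 11.6% lower of 69 for class II, and 42 and 4.0% of 50 for class I. The 8 lower peaks of class II were 5 without unstimulated replicate 1, and the 2 of class I were 1 without unstimulated replicate 3, 4 or 6 or LPS replicate 3 or 6.

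The list of costimulatory and checkpoint ligands, which also holds receptors such as 4-1BB and CD40, had 4 of 16 promoters higher and 2 lower. Tnfrsf9, which encodes 4-1BB, went from 6.36 CPM (5.00 to 6.6) to 19 CPM (15.7 to 20.4), log2 fold change 1.59 (SE 0.09, edgeR adjusted p = 6.64e-18), and 7 of its 8 distal peaks rose. Slamf7, a self-ligand receptor, went from 1.46 CPM (0.814 to 1.74) to 4.33 CPM (2.96 to 5.21), log2 fold change 1.58, and Cd40 and Pdcd1lg2, which encodes PD-L2, were at 1.07 and 0.92. Tnfsf18, the GITR ligand gene, fell from 3.77 CPM (2.56 to 4.28) to 1.58 CPM (1.30 to 1.92), log2 fold change -1.16, and Vsir was at -0.59. The count of lower promoters was 1 without unstimulated replicate 3 or 5 or LPS replicate 2, 4 or 6. Distal peaks were 41.0% higher and 13.3% lower of 210.

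Among matrix proteases and the plasminogen system, the list that holds Serpinb2, 5 of 17 genes rose and 2 fell. The aggrecanase gene Adamts4 rose from 0.978 CPM (0.814 to 1.24) to 3.41 CPM (3.09 to 4.39), log2 fold change 1.80, and Mmp25 (1.15), the tissue plasminogen activator gene Plat (1.07) and Timp1 (0.88) rose too. Mmp13 was at -0.59. The count that fell was 1 without unstimulated replicate 1, 3, 4 or 6 or LPS replicate 1, 2 or 5. Distal peaks were 34% higher and 17.3% lower of 162.

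**Figure D4:**
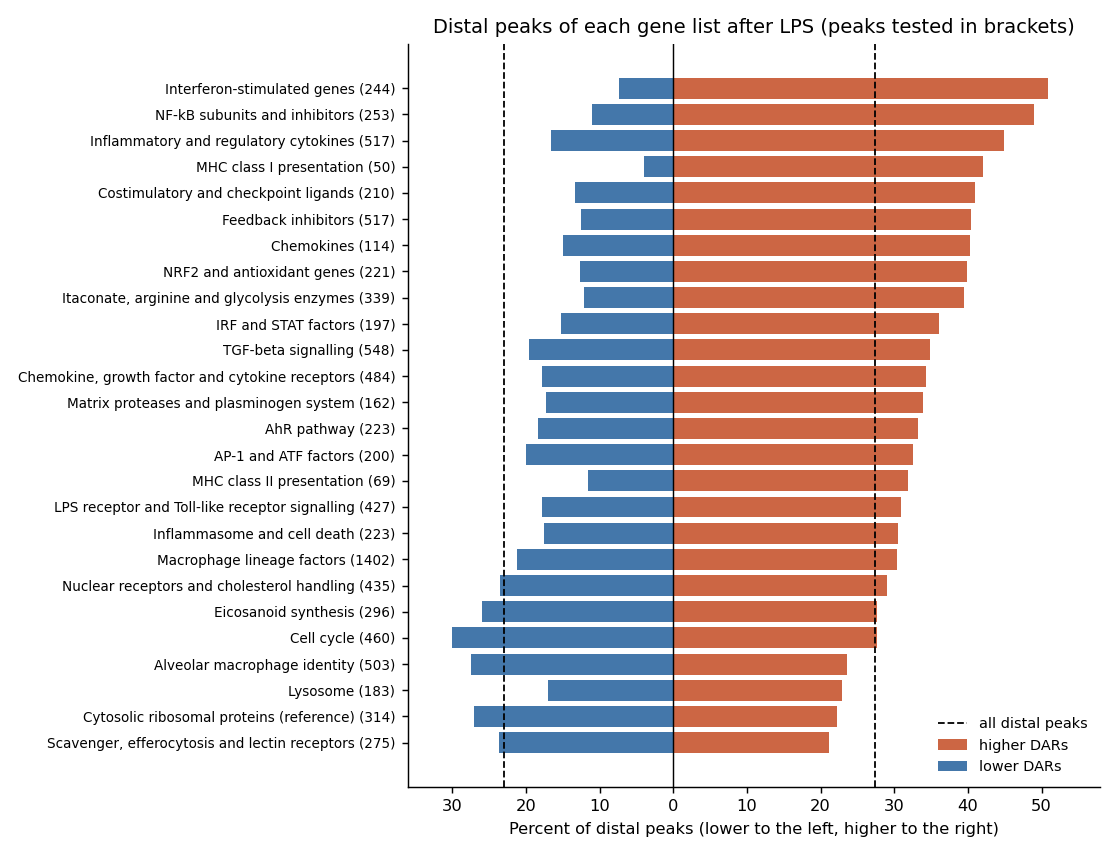
Percent of distal peaks assigned to each of 26 gene lists that were higher (red, to the right) or lower (blue, to the left) DARs after LPS, with the number of peaks tested in brackets and dashed lines at 27.4 and 22.9%, the shares of all distal peaks. Interferon-stimulated genes (50.8% higher) and NF-kB genes (49.0%) lead, and scavenger receptors (21.1%) and ribosomal protein genes (22.3%) come last.

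The remaining lists had few or no changed promoters. TGF-β signalling had 1 lower of 18, Tgfbr3 at -0.67 from 14.3 CPM (13.3 to 14.9) to 8.93 CPM (8.58 to 9.35). Among 20 NRF2 and antioxidant genes the metallothionein gene Mt2 was called at 0.59, from 29.6 CPM (24.1 to 30.6) to 43.8 CPM (39.8 to 45.9), and was lost without unstimulated replicate 6 (0.55) or LPS replicate 1, 2 or 4 (0.57 to 0.58). Near Slc7a11, the cystine transporter gene, 38 of 78 distal peaks rose and 7 fell. None of 11 AhR pathway genes with a TSS peak was a DAR (1 higher and 3 lower at an unadjusted p below 0.05). The lower count was 1 without unstimulated replicate 2, 3 or 5 or LPS replicate 1, 4 or 6, and their distal peaks were 33.2% higher and 18.4% lower of 223. Of 21 inflammasome and cell death genes Mefv, the gene of pyrin, rose at 0.72 from 3.39 CPM (2.44 to 3.88) to 5.19 CPM (4.30 to 7.82) and was lost after thinning (0.58).

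Cell cycle genes had 3 of 36 promoters lower, Myc at -1.02 from 41.1 CPM (37.8 to 45.2) to 21.1 CPM (15.6 to 22.9), Ccnd1, cyclin D1, at -0.80 and E2f2 at -0.72, while near Myc 51 of 136 distal peaks rose and 40 fell. In this list 24 of 36 promoters were lower and 2 higher at an unadjusted p below 0.05. Small decreases were also common over all genes, with 4470 of 13747 lower and 1923 higher at an adjusted p of at most 0.05 and no fold threshold. The list's median log2 fold change was -0.24, against -0.07 for all genes. No promoter of 28 lysosomal genes or of 64 genes for cytosolic ribosomal proteins, kept as a reference, was a DAR. At an unadjusted p below 0.05, 6 lysosomal genes were higher and 11 lower, and 4 ribosomal protein genes were higher and 15 lower. Ribosomal protein genes had a median log2 fold change of -0.03 at the TSS, and their distal peaks were 22.3% higher and 27.1% lower of 314.

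Distal peaks were compared by what the TSS peak of their gene did. Around genes whose TSS peak rose 42.5% of distal peaks rose and 13.8% fell, around genes whose TSS peak fell 20.9% rose and 34.9% fell, and around the others 27.5% rose and 22.2% fell. Of genes whose TSS peak fell 60.3% had a higher distal DAR, and of those whose TSS peak rose 48.3% had a lower one. Both shares were below those of genes whose TSS peak was not a DAR, at 69.9% with a higher and 64.6% with a lower distal DAR. Of 16534 genes with a distal peak, 7277 (44.0%) had distal DARs of both directions.

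**Figure D5:**
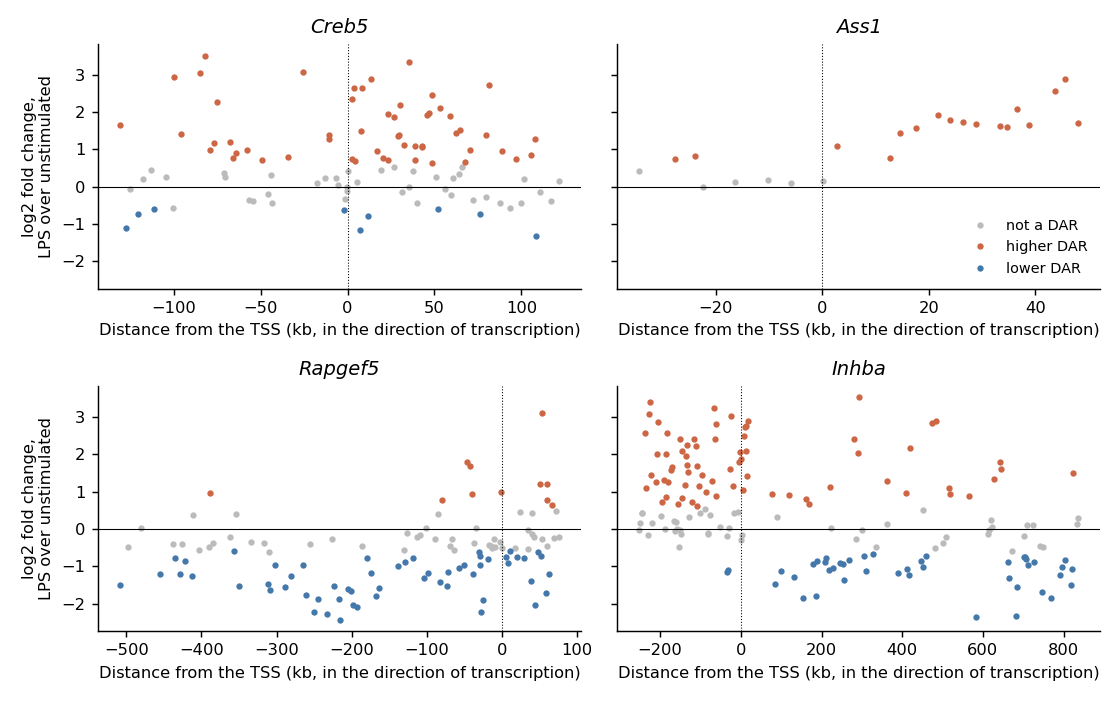
Log2 fold change of each tested peak (LPS over unstimulated) against its distance in kb from the TSS, positive in the direction of transcription, for the peaks nearest Creb5, Ass1, Rapgef5 and Inhba. Higher DARs are red, lower DARs blue and other peaks grey. Creb5 and Ass1 carry mostly higher DARs, Rapgef5 mostly lower ones, and Inhba higher ones upstream and both kinds downstream of its TSS.

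Many of the genes with the most distal DARs had changes in both directions. By number of higher distal DARs the leading genes were Lpp (70 of 145 distal peaks higher, 11 lower), a gene of an actin adaptor, Inhba (69 of 161, 43 lower), which encodes a subunit of activin A, Pde4d (59 of 198, 51 lower), a cAMP phosphodiesterase gene, Klf6 (58 of 132, 17 lower) and Zeb2 (56 of 160, 26 lower), both of transcription factors, and Creb5 (54 of 100, 8 lower), of the ATF family. In that order 48.3, 42.9, 29.8, 43.9, 35 and 54% of their distal peaks rose, against 27.4% of all distal peaks. A ranking by number favours genes with many peaks assigned, and the share of Pde4d was near that of all distal peaks. The TSS peaks of Lpp (log2 fold change 0.01), Klf6 (-0.12), Zeb2 (-0.02) and Creb5 (0.00) were not DARs, and that of Inhba was at -0.30. By share, all 11 distal peaks of Insl6, 23 of 24 of Slc13a1 and 17 of 18 of Nipsnap3b rose.

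Lower distal DARs were most numerous near Adgrl2 (70 of 213, 37 higher), a latrophilin gene, Rapgef5 (57 of 113, 10 higher), whose product activates RAP proteins, Zfp386 (57 of 184, 17 higher), Pde4d (51), Sel1l (48 of 101, 18 higher), a gene of endoplasmic reticulum protein disposal, and Nrp1 (43 of 113, 28 higher), the neuropilin 1 gene. Nrp1 and Pde4d had lower TSS DARs too, at -1.36 and -0.85. The distal peaks assigned to Zfp386 spanned chr12:114804494-116063155, while the gene itself lies at chr12:116047724-116063360. Genes not annotated as protein-coding were left out of the assignment, so such peaks may lie in or beside one of those. By share, 9 of 10 distal peaks near Lrrc7, 9 of 10 near Stk32c and 8 of 9 near Gm29797 fell, with none higher.

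Some neighbouring peaks changed in the same direction without a break. There were 777 runs of at least 5 consecutive tested peaks that were all higher DARs and 484 that were all lower. These runs held 5045 of the 44219 higher and 2921 of the 37692 lower DARs. How many runs would arise if peaks changed independently was not computed. The longest rise spanned 25 peaks over 350 kb at Iqub and Slc13a1 (chr6:24106897-24456553), with a median log2 fold change of 1.39. At Insl6 and Jak2, the kinase gene of cytokine receptors, 23 peaks in 62.9 kb rose (chr19:29256202-29319150, median 1.64), and at Ass1 and Fubp3 17 peaks rose (chr2:31472613-31524994, median 1.68). The longest run of losses held 16 peaks near Sp8, with a median log2 fold change of -1.30. The one assigned to Pla2g4a lay at chr1:148287975-148904572, with a median of -0.91.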

How the data were processed

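ATAC-seq libraries of WT and AhR-KO BMDMs were analysed from a deposited table of counts per consensus peak and from broad peak lists of each library. By the study's methods and per the file headers, the authors ran the nf-core atacseq pipeline on mm10 and counted read pairs with featureCounts 2.0.1 (minimum overlap fraction 0.2, pairs shared between overlapping peaks counted in each). The deposited peak lists give a −log10 q-value from MACS2, used only to find which peaks were called in each library and with a lowest value of about 1.00 to 1.03.

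Counts of all 24 libraries (184158 peaks, 174193 after edgeR's filterByExpr with a minimum count of 10) were fitted with edgeR 4.0.16 in R 4.3.3 (TMM, trended dispersion, robust quasi-likelihood test), and p-values were Benjamini-Hochberg adjusted over all tested peaks. SEs are the size of the log2 fold change divided by the square root of F. CPM values use TMM-scaled totals. Distance, TSS and location come from GENCODE vM21 (GRCm38). TSS peaks cover the start of a protein-coding transcript, and a distal peak was assigned to the nearest of 21911 protein-coding genes. Peak starts are printed counting from 1. Named were the 8 TSS and 8 distal DARs of largest change in each direction with non-overlapping groups and a mean of at least 10 CPM in the higher group, the extreme DARs of each gene list (the second as well in lists with more than 3 in a direction), the 6 genes with most distal DARs and the 3 with the largest share (of at least 8 peaks) in each direction. Other genes named in the lists were chosen after their values were seen. Members and lists were chosen with earlier results of these data known. Counts per library limit precision as given. In simulated data of the WT comparison (171978 peaks fitted) the calls recovered 16 of 50 peaks raised 1.5-fold, 43 of 50 raised 2-fold and 50 of 50 raised 4-fold. A 1.5-fold change lies on the fold threshold itself, so many such peaks miss it by construction. The simulation changed far fewer peaks than differed here and used a dispersion below the median trended value of 0.0237. Its recovery therefore checks the fit and does not give the sensitivity of the calls in these data. Alternatives were RLE factors, DESeq2 1.42.0, no filter, the 12 WT libraries alone, a replicate block, offsets from 20 GC bins, thinning, other fold thresholds, windows and overlaps, and leaving out each library. No columns of the authors' own comparisons were used. Results on RNA were not analysed here, and values of a few named peaks are not reported here.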

Additional observations from a re-analysis of the deposited data

Results flagged for a closer look

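Single libraries stood away from the other 5 of their group in 11 of 170 groups examined (6.47%), by Dixon's criterion, which chance meets in about 1 of 20. At TSS peaks these were Rlbp1 in LPS replicate 4 (8.96 CPM against 10.5 to 11.2), Clec16a in unstimulated replicate 4 (1.2 against 0.567 to 0.795), Tnfaip3 in LPS replicate 3 (13.9 against 15.6 to 16.6), Bank1 in unstimulated replicate 1 (59.5 against 55.4 to 56.4), Ccl12 in LPS replicate 6 (12.7 against 14.2 to 14.7) and Mt2 in unstimulated replicate 6 (24.1 against 28.9 to 30.6). At distal peaks they were those near Fndc3a in unstimulated replicate 5 (0.814 CPM against 0.198 to 0.397), A430005L14Rik in LPS replicate 1 (1.89 against 1.15 to 1.41) and Snrk in unstimulated replicate 5 (19.7 against 15.9 to 17). Of these 9 calls only that of Mt2 was lost without the library that stood apart, with a log2 fold change of 0.55 in place of 0.59. Counts on the Y chromosome for each M counts were 118 in unstimulated and 90.1 in LPS replicate 6, below every other library of their groups.

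The LPS response differed between WT and AhR-KO cells at 14 of the 81 named peaks in edgeR's test of the interaction (adjusted p of at most 0.05 and a difference of at least 1.5-fold), against 10.4% of all tested peaks. Values are log2 fold changes on LPS, and each difference is WT minus AhR-KO with 6 libraries in every group. Opening was smaller in WT at 5 TSS peaks. Ccl5 rose by 4.34 in WT and 5.97 in AhR-KO cells (difference -1.64, SE 0.52, edgeR adjusted p = 0.0289). Serpinb2 rose by 2.96 and 3.90 (difference -0.94, adjusted p = 0.00091), and Oasl2 by 0.69 and 1.65 (difference -0.96, adjusted p = 0.00023). Oasl1 rose by 1.28 and 2.12 (difference -0.84, adjusted p = 8.65e-05), and Ptgs2 by 0.96 and 1.62 (difference -0.66, adjusted p = 7.88e-06). Opening was larger in WT at Ccl22, with 1.91 and 1.05 (difference 0.87, adjusted p = 0.00247), and at Il1b, with 1.96 and 1.36 (difference 0.60, adjusted p = 0.0262).

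Closing was smaller in WT at 6 peaks. Gsc was at -1.67 in WT and -2.80 in AhR-KO cells (difference 1.13, edgeR adjusted p = 1.19e-08), and Bank1 fell by 1.59 and 2.48 (difference 0.89, adjusted p = 3.57e-07). Pald1 fell by 1.61 and 2.41 (difference 0.80, adjusted p = 3.92e-05), and Myc fell by 1.02 and 1.71 (difference 0.69, adjusted p = 2.24e-05). Tfec was at -0.69 and -1.30 (difference 0.62, adjusted p = 0.00874), and the intronic peak near Pitpnm2 fell by 3.14 and 3.80 (difference 0.66, adjusted p = 0.00726). The intergenic peak near A430005L14Rik fell by 3.10 in WT and was at 0.10 in AhR-KO cells, a difference of -3.21 (SE 0.54, edgeR adjusted p = 0.000258).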

How the results depend on the processing

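No single peak's call changed sign under any alternative run. With the same thresholds, 52.7 to 55.4% of all DARs were higher, 0 peaks called in both fits were called in opposite directions, and thinning kept 68.2% of the calls. Leaving out each library in turn gave 43857 to 45069 higher and 36258 to 38444 lower DARs, of which 533 to 586 and 801 to 880 were at TSS peaks and 41936 to 43092 and 34058 to 36114 at distal peaks. By gene the ranges were 441 to 485 and 698 to 762. A fold of at least 2 left 18978 lower DARs in all and 18070 at distal peaks, 254 higher and 229 lower TSS peaks (52.6% higher, against 39.6%), and 194 and 184 genes. Without a fold threshold there were 2002 higher and 4441 lower TSS peaks and 1923 and 4470 genes, and the higher share was 49.7% of all DARs (54.0% with the threshold) and 31.1% at TSS peaks. In these 2 cases the threshold itself sets the number. GC offsets raised the higher share of TSS DARs to 47.7%. The share of higher distal DARs with a match went to 28.8% in 200 bases and 52.3% in the whole peak for AP-1, and to 9.38 and 20.7% for NF-kB. For lower distal DARs it went to 11.5 and 20.8% for PU.1 and 10.2 and 22.4% for RUNX, and the window length sets these shares. Where an overlap had to cover 0.5 of the peak, 83.3% of higher and 55.1% of lower distal DARs had no called peak in the libraries of the lower group. By that rule 40.7% of distal peaks that were not DARs had none in the unstimulated and 27.1% none in the LPS libraries.

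Equal replicate numbers were not taken as pairs, since no source ties them to animals and the correlation of their deviations was not above 0.1 for every number. It was 0.037 for number 4 and 0.159 to 0.290 for the other 5, replicate 6 was lowest in Y chromosome counts in both groups, and 7 of 12 libraries correlated best with their own number, so a shared source is not decided. In the 12 WT libraries a block for the number gave 41386 higher and 35578 lower DARs, against 40954 and 35199 without it. Of 81 named peaks, 9 lost their call under some setting and 7 when a library was left out. Counts over gene lists stayed within 1.5-fold in 983 comparisons with other settings and moved further in 161, and with a library left out in 1210 and 38. Depth limits weak peaks: the smallest library held 8.54 M counts.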
